A study of Mus with 12 samples.

Results

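Transcripts of 9 haem synthesis genes were examined in mouse whole blood, out of 25247 genes in the deposited table. The genes were chosen by name: 7 enzymes of the pathway (Alas2, Alad, Uros, Urod, Cpox, Ppox and Fech) and 2 proteins of the inner mitochondrial membrane (Slc25a38 and Abcb10). All 9 were found in the table, and they do not include every enzyme of the pathway. The blood came from female BALB/c mice bought at 6 weeks of age, in 12 libraries, 3 in each of 4 groups. Each library was taken as 1 mouse. Solvent mice had the vehicle, a mixture of acetone and olive oil, on the skin. DNCB mice were sensitised with 1% dinitrochlorobenzene, a contact allergen that produces skin lesions like those of atopic dermatitis, and challenged with 0.5%. The scMSC and scivMSC mice had the same DNCB schedule and doses of 2000000 human umbilical cord mesenchymal stem cells. These were given as 100 µL under the skin in scMSC, or as 50 µL under the skin and 50 µL into the tail vein in scivMSC. No group had the human cells without DNCB, and none had them by the tail vein alone.

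Haem is the iron-containing ring that lets haemoglobin bind oxygen, and it is made in steps that begin and end in the mitochondrion. Alas2, the erythroid form of aminolevulinic acid synthase, carries out the rate-limiting first step from glycine and succinyl-CoA. Alad, Uros and Urod build and trim the ring in the cytosol, Cpox and Ppox oxidise it in the mitochondrion, and Fech inserts the iron. Slc25a38 is a mitochondrial carrier that brings glycine to the first step, and Abcb10 is a mitochondrial transporter needed for haem synthesis in red cell precursors. Mature red cells have no nucleus, so haem synthesis transcripts in blood are mostly those that young red cells (reticulocytes) still carry, while white cells use the shared enzymes at low levels.

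The table gave an estimated count and an FPKM value (fragments per kilobase of gene, scaled to the library's total) for each gene and library. Estimated counts summed to between 52.2e6 and 65.1e6 per library, and the 10 haemoglobin genes took 91.3% to 95.6% of the summed FPKM, as whole blood would give. That share was 93.6% on average in Solvent, 92.5% in DNCB, 94.2% in scMSC and 94.9% in scivMSC. With 3 against 3 mice, an exact permutation p (two-sided) cannot go below the 0.1 found for either MSC group against DNCB. Against Solvent that p was 0.3 for DNCB, 0.7 for scMSC and 0.3 for scivMSC. Of 18 red cell reference genes, 17 were in the table, with a summed FPKM between 699 and 1307. Markers of neutrophils, 10 in all, summed to between 6965 and 10928 FPKM in DNCB and to at most 730 in any library of the other groups. The scivMSC libraries held fewer detected genes, 11806 to 14974 with at least 4 counts against 15195 to 17350 in the other libraries. In RNA from whole blood, fewer cells of a type and less RNA per cell cannot be told apart.

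The 9 genes spanned more than 4 orders of magnitude, and Alas2 stood far above the others. Its mean over 12 libraries was 4428 FPKM, rank 6 of the 25247 genes. Fech was next at 57.1 FPKM (rank 132), followed by Urod at 7.70 and Alad at 2.59. Slc25a38 averaged 1.43 FPKM and Ppox 0.981, and the lowest 3 were Abcb10 at 0.464, Uros at 0.365 and Cpox at 0.264 FPKM. Alas2 held 98.0% to 98.8% of the summed FPKM of the 9 genes in every library. Its share of all counts was 1.01% to 1.26%, and 4.76% to 10.5% of the counts outside haemoglobin.

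The ranges of Alas2, Fech and Urod over the 12 libraries did not meet. From Urod down, each gene's range overlapped that of the next, although most steps kept their order within libraries. Urod lay above Alad in 12 of 12 libraries and Ppox above Abcb10 in 12. Alad exceeded Slc25a38 in 11, as Slc25a38 did Ppox. The order was less fixed at the bottom, with Abcb10 above Uros in 10 libraries and Uros above Cpox in 8. The enzymes that open and close the pathway were thus the most abundant transcripts of the set, and the order of levels was not that of the steps. These levels rested on very different numbers of counts, from 595463 to 759308 per library for Alas2 and 33966 to 68551 for Fech, but only 577 to 1933 for Urod, 138 to 473 for Ppox and 27 to 254 for Cpox.

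**Figure D1:**
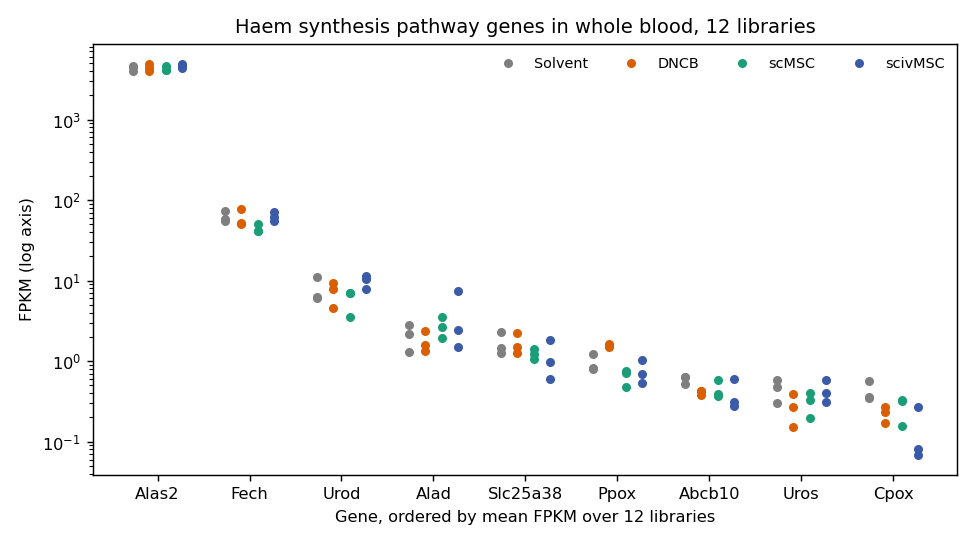
FPKM (log axis) of the 9 genes in each of 12 libraries, ordered by mean and coloured by group (Solvent, DNCB, scMSC, scivMSC). Alas2 sits between 3961 and 4954 in every library and Fech between 40.7 and 76.9, while the remaining genes lie at or below 11.3.

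The genes lie on 8 chromosomes, with Alad and Urod both on chromosome 4, and the table lists from 1 transcript (Abcb10) to 14 (Fech) for them. Alas2 is at chrX:150547375-150570638 on the plus strand and Ppox at chr1:171275990-171281186 on the minus strand. The submitters' notes name the build mm8, but 87.2% of 21414 shared gene symbols start within 1000 bases of their position in RefSeq GRCm38.p6, so the coordinates are read as that build. Of the 9 genes, 5 overlap a gene on the opposite strand, and no source states whether reads were counted by strand. Without strand, reads in such an overlap cannot be assigned to either gene. For Alas2 the neighbour is Apex2, at no more than 0.173 FPKM. Uros shares 740 bases with Bccip, whose FPKM was 0.214 to 2.42 and so mostly above that of Uros. Cpox shares 204 bases with Gpr15 and Abcb10 shares 6477 with Gm45890. The Cpox row ends 37245 bases beyond the end of Cpox in RefSeq GRCm38.p6, and what part of its counts lies there was not tested. Ppox shares 907 bases with B4galt3, whose values are given beside those of Ppox.

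Group differences were tested on the estimated counts with edgeR's quasi-likelihood test, and library totals set the scale, as they do for FPKM. A gene entered the test if 3 or more libraries reached 1 FPKM, which 5527 genes did. Of the 9, 6 passed this filter (Alas2, Alad, Urod, Ppox, Fech and Slc25a38), and Uros, Cpox and Abcb10 did not. A gene was taken to differ at a Benjamini-Hochberg adjusted p under 0.05 over the 5527 genes.

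Of the 6 tested genes, Ppox alone differed over the 4 groups (F test, adjusted p = 0.0259), against 72.3% of all genes tested. For the others the adjusted p of that test ran from 0.0809 for Fech to 0.791 for Alas2. Between DNCB and Solvent none of the 6 rose or fell, where 16.1% of all genes were higher in DNCB and 5.03% lower. In scMSC against DNCB, 1 of 6 was lower, Ppox, and none higher, where 25.9% of all genes were lower and 1.65% higher. In scivMSC against DNCB, 1 of 6 was again lower, Ppox (higher under TMM scaling), and none higher, where 65.0% of all genes were lower and 2.88% higher. Both Ppox differences were also over 2-fold, a criterion that 24.9% of all genes met downward in scMSC and 62.0% in scivMSC. None of the 6 differed between scivMSC and scMSC (background 31.6% lower and 0.615% higher), between scMSC and Solvent (0.326% and 0.344%) or between scivMSC and Solvent (61.4% and 4.11%).

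The median gene tested moved far more than the median haem gene in the scivMSC comparisons on this scale. In scivMSC against DNCB the median log2 fold change was 0.05 over the 6 genes and -1.53 over all genes. Against Solvent it was 0.03 and -1.47, and against scMSC it was 0.36 and -0.87. In scMSC against DNCB the medians were closer, at -0.38 and -0.63, as they were against Solvent, at -0.44 and -0.59. In DNCB against Solvent they were -0.04 and 0.06. What each gene did is given next in the order of the pathway.

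Slc25a38, the glycine carrier, had FPKM values of 2.31, 1.44 and 1.28 in Solvent, 1.28, 2.21 and 1.49 in DNCB, 1.43, 1.05 and 1.22 in scMSC, and 1.85, 0.607 and 0.962 in scivMSC. The groups overlapped in every comparison, and the scivMSC libraries held both a high and the lowest value. Its largest log2 fold change was -0.55 ± 0.44 (SE), in scivMSC against Solvent, with an adjusted p of 0.279. Without scivMSC replicate 1 this became -1.08 with an adjusted p of 0.0316. The difference from DNCB became -1.07 with an adjusted p of 0.0319, so the absence of a call rested on that library. With all libraries kept, 61.4% of all genes were lower in scivMSC than in Solvent and 65.0% than in DNCB. The median log2 fold changes of all genes there, -1.47 and -1.53, were further below 0. Under TMM scaling Slc25a38 was higher in scivMSC in both comparisons.

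Alas2 had nearly the same FPKM in all 4 groups. Its FPKM was 4553, 3961 and 4574 in Solvent, 4330, 4011 and 4954 in DNCB, 4599, 4111 and 4167 in scMSC, and 4950, 4578 and 4346 in scivMSC. All 4 groups overlapped one another, and the lowest group mean was 4293 ± 267 (SD, n = 3), in scMSC, and the highest 4625 ± 305 (SD, n = 3), in scivMSC. The coefficient of variation over 12 libraries was 7.51%, against 64.8% for Alad. No log2 fold change was beyond 0.11, the value for scivMSC against scMSC, where the 95% interval was -0.12 to 0.35. For scMSC against DNCB it was -0.06 (-0.29 to 0.18) and for scivMSC against DNCB it was 0.06 (-0.18 to 0.29). Scaled to haemoglobin counts its log2 fold changes lay between -0.13 (scMSC against DNCB) and 0.09 (scivMSC against scMSC). In scivMSC against DNCB, however, Alas2 was higher by 0.62 with haemoglobin left out of the library totals (adjusted p = 0.00719) and by 1.73 under TMM scaling (adjusted p = 0.000917).

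Alad, which joins 2 aminolevulinic acid molecules, was set apart by a single mouse. Its FPKM was 2.82, 2.17 and 1.295 in Solvent, 1.58, 1.32 and 2.39 in DNCB, 2.68, 1.92 and 3.57 in scMSC, and 7.46, 1.49 and 2.41 in scivMSC. The value of 7.46 in scivMSC replicate 1 was the highest of the 12 libraries, and the other libraries of that group lay within the range of DNCB or just above it. The log2 fold change was 1.10 ± 0.53 in scivMSC against DNCB (adjusted p = 0.0751). It was 0.14 without scivMSC replicate 1 (adjusted p = 0.777) and 1.49 without replicate 2, which passed (adjusted p = 0.00989). In scivMSC against Solvent it was 0.85 (adjusted p = 0.164), and it also passed without scivMSC replicate 2, at 1.23 with an adjusted p of 0.0287. Alas1, the form of the first enzyme that other cells use, was likewise high in that library, at 2.39 FPKM against 0.0270 and 0.176 in the other scivMSC mice.

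Uros, which closes the ring, was too low to be tested under the filter. Its values were 0.577, 0.472 and 0.301 FPKM in Solvent, 0.152, 0.267 and 0.395 in DNCB, 0.400, 0.331 and 0.197 in scMSC, and 0.575, 0.401 and 0.314 in scivMSC. The groups overlapped in all 6 comparisons, on 35 to 140 counts per library. In a fit of all 25247 genes with no filter, its log2 fold change lay between -0.73 ± 0.63 (SE), in DNCB against Solvent, and 0.66 ± 0.63, in scivMSC against DNCB, and none passed (smallest adjusted p = 0.475).

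Urod, which removes carboxyl groups from the side chains of the ring, had its highest group mean in scivMSC without passing the test under total counts. Under TMM scaling it was higher in scivMSC than in each other group. Its FPKM was 11.1, 6.28 and 6.09 in Solvent, 7.85, 4.62 and 9.23 in DNCB, 7.01, 3.51 and 6.96 in scMSC, and 11.3, 10.6 and 7.89 in scivMSC. Every scivMSC library lay above every scMSC library, and both groups overlapped DNCB and Solvent. The log2 fold change of scivMSC against scMSC was 0.77 ± 0.37 (SE), with an adjusted p of 0.111 and a 95% interval of -0.01 to 1.54. Urod and Fech were the 2 of 6 tested genes whose groups did not overlap in that comparison, where 50.5% of all genes did not.

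Cpox, the first of the mitochondrial oxidations, was the lowest of the set and was highest in Solvent. Its FPKM was 0.565, 0.352 and 0.358 in Solvent, 0.232, 0.273 and 0.169 in DNCB, 0.326, 0.156 and 0.317 in scMSC, and 0.271, 0.0805 and 0.0679 in scivMSC. Every Solvent library exceeded every library of the other groups, which overlapped among themselves. In the fit with no filter, Cpox was lower in scivMSC than in Solvent with -1.58 ± 0.60 (SE) on the log2 scale and an adjusted p of 0.0437, where 28.3% of all genes were lower. That call was lost with TMM scaling and no filter, at -0.19 (adjusted p = 0.836), and the F test over the 4 groups did not pass for Cpox under either scaling (adjusted p = 0.197 and 0.430). The differences from Solvent of DNCB, at -0.91 (adjusted p = 0.490), and scMSC, at -0.67 (adjusted p = 0.525), did not pass. Summed T cell markers were 53.7 to 88.9 FPKM in Solvent, 20.8 to 29.5 in DNCB, 27.5 to 37.3 in scMSC and 7.08 to 18.9 in scivMSC, and B cell markers were likewise highest in Solvent. Their part in the Cpox values was not tested.

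Fech, the enzyme that inserts iron, was the second most abundant and was lowest in scMSC. Its FPKM was 74.1, 55.6 and 58.4 in Solvent, 52.2, 50.8 and 76.9 in DNCB, 50.2, 41.0 and 40.7 in scMSC, and 70.2, 54.3 and 61.0 in scivMSC. The scMSC libraries lay below all 9 libraries of the other groups, but the gap to DNCB was small, 50.2 against 50.8. The log2 fold change was -0.52 ± 0.20 (SE) against Solvent (adjusted p = 0.122) and -0.46 ± 0.20 against DNCB (adjusted p = 0.0949). In scivMSC against scMSC it was 0.50 ± 0.20 (adjusted p = 0.0621), and without DNCB replicate 3 that value passed at an adjusted p of 0.0456. Under total counts Fech was level between scivMSC and DNCB, at 0.04 with a 95% interval of -0.38 to 0.46. With haemoglobin left out of the library totals, and under TMM scaling, it was higher in scivMSC than in DNCB. The ratio of Alas2 to Fech had a median of 100.3 in scMSC, against 71.3 in Solvent, 79.0 in DNCB and 71.2 in scivMSC.

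Abcb10 was not tested under the filter and had its highest group mean in Solvent. Its FPKM was 0.637, 0.524 and 0.635 in Solvent, 0.431, 0.430 and 0.377 in DNCB, 0.580, 0.394 and 0.374 in scMSC, and 0.599, 0.274 and 0.314 in scivMSC. DNCB lay wholly below Solvent, and the other groups overlapped both. With no filter its log2 fold change was -0.53 ± 0.54 (SE) in DNCB against Solvent (adjusted p = 0.642), with a 95% interval of -1.61 to 0.55.

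**Figure D2:**
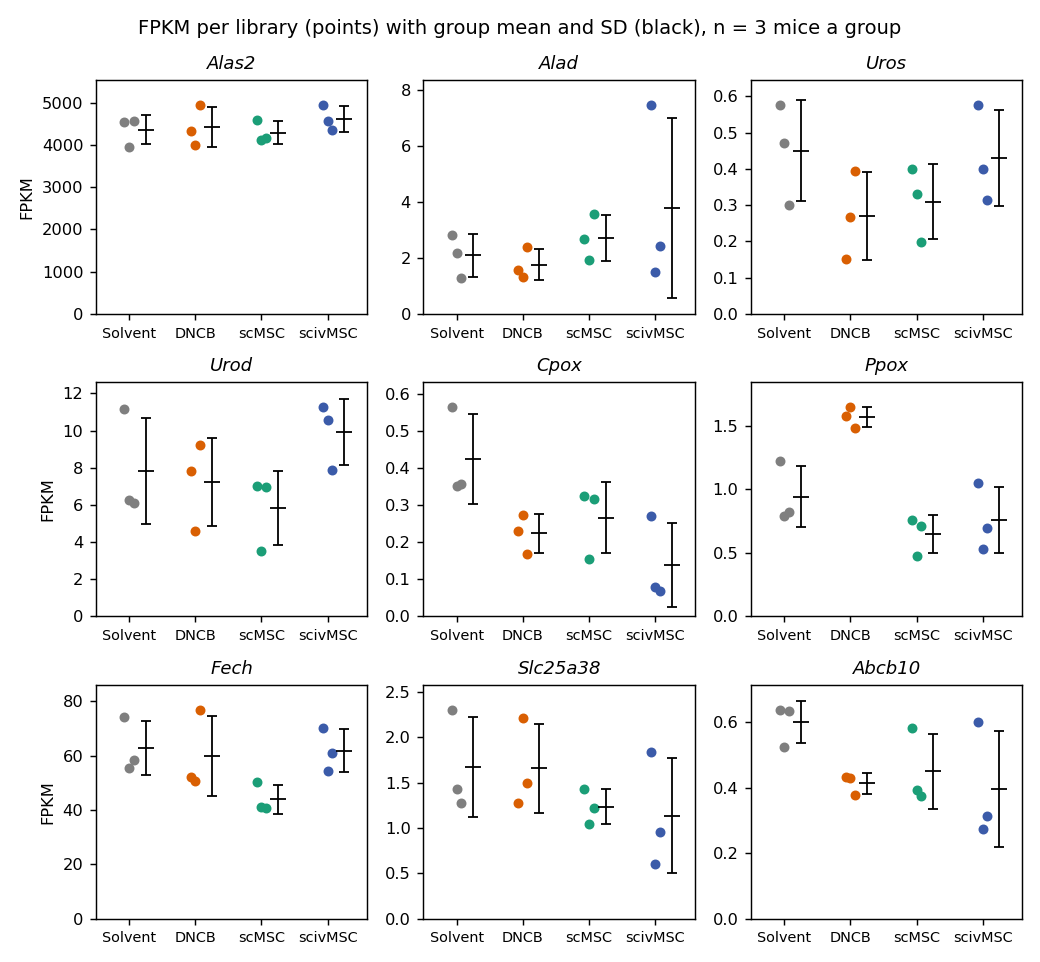
FPKM of each of the 9 genes by group on axes that start at 0, with points for libraries and black marks for the mean and SD of 3 mice. Alas2 FPKM is level across groups, the 3 Ppox values of DNCB (1.49 to 1.65) lie above all others, and a single scivMSC library (7.46) sets the Alad mean.

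Ppox, the enzyme before iron insertion, was higher in DNCB than in any other group. Its FPKM was 1.22, 0.791 and 0.818 in Solvent, 1.58, 1.65 and 1.49 in DNCB, 0.761, 0.478 and 0.712 in scMSC, and 1.05, 0.533 and 0.697 in scivMSC. All 3 DNCB libraries exceeded all 9 others, and the 2 MSC groups overlapped each other. In scMSC the log2 fold change from DNCB was -1.27 ± 0.39 (SE), with an adjusted p of 0.0222. In scivMSC it was -1.04 ± 0.38, with an adjusted p of 0.0246, and its sign turned under TMM scaling. The difference between DNCB and Solvent, 0.73 ± 0.38 on the log2 scale, did not pass (adjusted p = 0.194). The median of all genes in the scivMSC comparison was further below 0, at -1.53.

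Both Ppox calls against DNCB rested on single libraries. The scMSC difference lost its call without DNCB replicate 1 (adjusted p = 0.0559), DNCB replicate 2 (0.0673), scMSC replicate 2 (0.112) or scMSC replicate 3 (0.0626). The scivMSC difference lost it without DNCB replicate 1 (0.0581), DNCB replicate 2 (0.0582), scivMSC replicate 2 (0.0772) or scivMSC replicate 3 (0.0758). The direction was the same in all of these fits, with log2 fold changes between -1.40 and -1.09 for scMSC and between -1.33 and -0.84 for scivMSC. With no filter on low genes, neither passed (adjusted p = 0.104 and 0.0885). The F test call of Ppox was lost without DNCB replicate 1 (adjusted p = 0.0845), 2 (0.0776) or 3 (0.0593). It was also lost without scMSC replicate 2 (0.0629) or 3 (0.0507), and with no filter (0.0875).

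The gene that overlaps Ppox was also highest in DNCB. B4galt3, a galactosyltransferase, had FPKM values of 1.09, 0.666 and 0.583 in Solvent, 2.29, 3.47 and 1.61 in DNCB, 0.520, 0.464 and 0.607 in scMSC, and 0.393, 0.119 and 0.141 in scivMSC. Its DNCB libraries stood above all others, but unlike Ppox its scivMSC libraries lay below all scMSC libraries. Neutrophil markers were highest in DNCB too, with summed FPKM of 220 to 445 in Solvent, 6965 to 10928 in DNCB, 573 to 716 in scMSC and 246 to 730 in scivMSC. Monocyte markers, 7 in all, were also highest in DNCB, with a summed FPKM of 24.7 to 44.2. Their sums were 8.16 to 22.0 in Solvent, 12.5 to 12.9 in scMSC and 9.16 to 10.1 in scivMSC. Among them Cx3cr1 went the other way, with its top value of 1.08 FPKM in Solvent. The part of the overlap and of the neutrophil and monocyte signals in the Ppox difference was not tested.

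**Figure D3:**
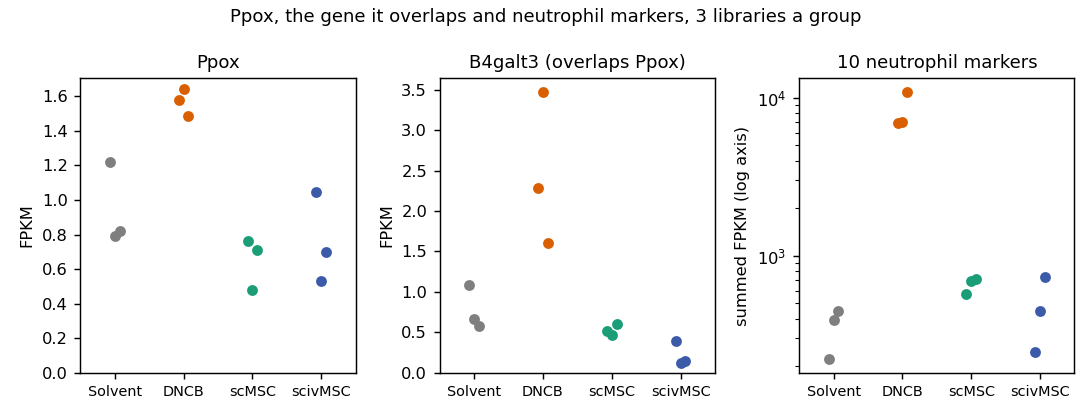
FPKM per library of Ppox (left) and of the overlapping B4galt3 (centre), and summed FPKM of 10 neutrophil markers on a log axis (right), 3 libraries a group. In all 3 panels the DNCB libraries lie above every other library, and scivMSC lies below scMSC for B4galt3 only.

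Counting groups that did not overlap in FPKM, 1 of the 6 tested genes was apart between DNCB and Solvent (Ppox, higher), where 41.5% of all genes were. In scMSC against DNCB 2 of 6 were apart (Ppox and Fech, both lower), where 55.3% were. In scivMSC against DNCB 1 of 6 was (Ppox, lower), where 73.3% were. In scMSC against Solvent 2 of 6 were (Ppox and Fech, both lower), where 47.6% were, and in scivMSC against Solvent none were, where 68.7% were. Among the 3 genes below the filter, Cpox lay below Solvent in all 3 other groups and Abcb10 in DNCB. The shares above cover tested genes only, so no background stands beside these values.

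The direction of the scivMSC values depended on how libraries were scaled. Total counts are mostly haemoglobin, so the first scaling sets each gene beside haemoglobin, and a fit scaled to summed haemoglobin counts gave nearly the same result (Ppox -1.34 in scMSC and -1.14 in scivMSC against DNCB, adjusted p = 0.0241 and 0.0231, no other call). TMM scaling instead sets the middle of all genes to no change, and moved the median over all genes in scivMSC against DNCB from -1.53 to 0.04. On that scale all 6 tested genes were higher in scivMSC than in DNCB, by a median log2 fold change of 1.69, where 27.2% of all genes were higher. Alad was higher by 2.45 ± 0.38 (SE, adjusted p = 0.000149), Urod by 2.09 ± 0.37, Alas2 by 1.73 ± 0.34, Fech by 1.66 ± 0.29 and Slc25a38 by 0.99 ± 0.20. Ppox changed sign, from -1.04 to 0.54 ± 0.18 (adjusted p = 0.0244).

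The other comparisons with scivMSC turned in the same way under TMM. All 6 were higher in scivMSC than in scMSC (median 1.18, background 20.7%) and than in Solvent (median 1.54, background 28.2%). In scMSC against DNCB, Alad was higher by 1.23 ± 0.37 (adjusted p = 0.0216, background 14.3%) and Ppox lower by -0.61 ± 0.18 (adjusted p = 0.0225, background 18.9%). In DNCB against Solvent Ppox was higher by 0.60 ± 0.18 (adjusted p = 0.0181, background 22.6%). The F test over the 4 groups passed for 6 of 6 genes, where 70.0% of all genes passed. The sign of Ppox was the same on all 3 scales in DNCB against Solvent and in scMSC against DNCB, but not in scivMSC against DNCB.

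Leaving haemoglobin out of the library totals gave an intermediate picture. Alas2 (0.62), Alad (1.53), Urod (0.98) and Fech (0.59, log2 fold changes) were higher in scivMSC than in DNCB, 4 of 6 where 10.6% of all genes were higher, and Ppox had a log2 fold change of -0.50 (adjusted p = 0.0814). With TMM scaling and no filter, an alternative chosen after the data were seen, Uros at 2.02 (adjusted p = 0.00103) and Abcb10 at 1.26 (adjusted p = 0.00969) were also higher in scivMSC than in DNCB, where 6.69% of all genes were. The red cell reference list was also higher under TMM, with a median log2 fold change in scivMSC against DNCB of 0.58 under total counts and 2.22 under TMM. Its genes Bpgm and Gata1 were higher in scivMSC than in DNCB under total counts, all 12 of its tested genes were higher under TMM, and none was lower under either.

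**Figure D4:**
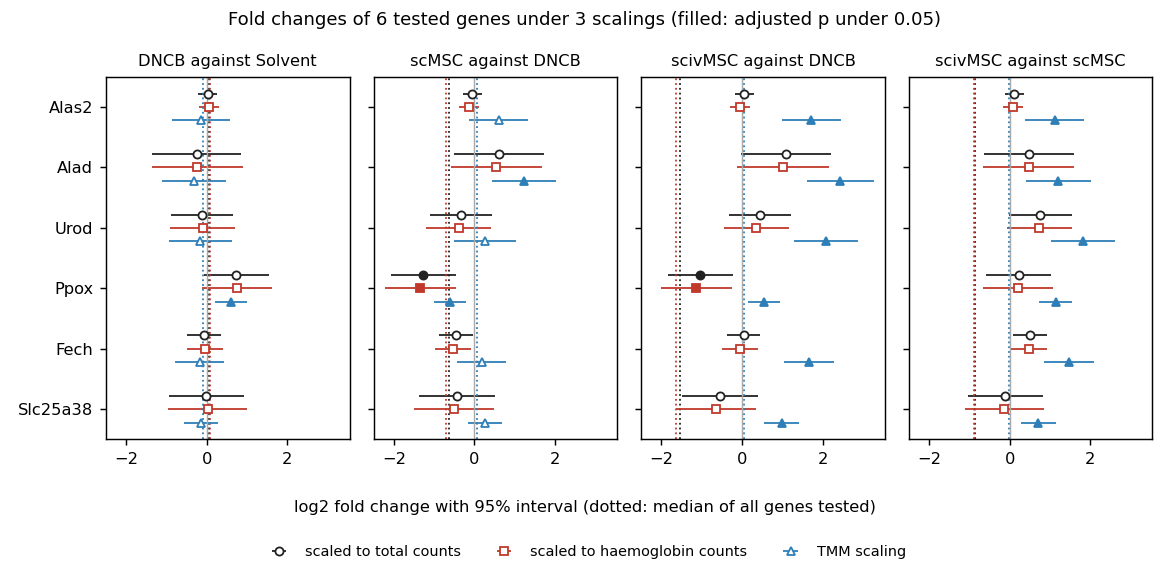
Log2 fold changes with 95% intervals of the 6 tested genes in 4 comparisons, scaled to total counts (circles), haemoglobin counts (squares) or by TMM (triangles), filled where the adjusted p was under 0.05, with dotted lines at the median of all genes. In scivMSC against DNCB the TMM values of all 6 are filled and above 0 (median 1.69), while under the other scalings only Ppox is filled and lies below 0.

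The genes differed in which other transcripts they followed across the 12 libraries. The values below are Pearson correlations of log2(FPKM + 1) over 12 libraries, which share groups and total counts, and are given as descriptions. Urod and Alas2 followed the 12 red cell reference genes most closely, with r of 0.855 and 0.758. Ppox followed the neutrophil markers, at 0.777, and was at -0.161 with the red cell genes. Cpox followed 17 lymphocyte markers, at 0.906, as did Abcb10 at 0.714 and Slc25a38 at 0.632, and all 3 were below 0 with the red cell genes. Fech was intermediate with the red cell genes, at 0.475.

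The single genes most like Urod were Car2 (r = 0.957), a red cell carbonic anhydrase, Snx15 (0.955) and Slc4a1 (0.943), the red cell anion exchanger. For Alas2 they were Tmcc2 (0.852), Fam210b (0.849), a mitochondrial protein of red cell precursors, and Hemgn (0.847), a nuclear protein of red cell precursors. Ppox was most like Eid1 (0.964), Cpox like Sigirr (0.976), Slc25a38 like the mitochondrially encoded mt-Nd4 (0.967) and Abcb10 like Ddt (0.945). Fech was most like Mtx2 (0.890), Alad like Amd-ps3 (0.887) and Uros like Foxo4 (0.846). These were the highest values among 5018 genes searched, and with 12 libraries high values arise readily in such a search.

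Among the members themselves, Alas2, Urod and Fech varied together, with r between 0.696 and 0.718 for the 3 pairs. Cpox and Abcb10 did so at 0.837 and Cpox and Slc25a38 at 0.729. Ppox was near 0 with Alas2 (0.159), Alad (-0.04) and Uros (-0.10). Once group means were removed, the r of Ppox was 0.789 with Alad, 0.373 with Alas2 and 0.425 with Uros, and it went from 0.291 to 0.950 with Cpox and from 0.695 to 0.889 with Slc25a38.

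Another 30 genes of haem handling, which supply the pathway, build iron-sulphur clusters or sense, break down and export haem, were in the table, and 18 were tested. In DNCB against Solvent 4 of the 18 rose and none fell, where 16.1% of all genes were higher and 5.03% lower. Under TMM 5 were higher (background 22.6%) and 1, Hscb, was lower (background 19.5%). Hmox1, which degrades haem, rose from 1.69, 1.71 and 1.90 FPKM in Solvent to 9.77, 14.0 and 9.32 in DNCB, a log2 fold change of 2.64 (adjusted p = 0.00021). Bach1, the haem-binding repressor of Hmox1, rose by 1.77 (adjusted p = 0.00327), Tspo, an outer mitochondrial membrane protein that binds porphyrins, by 1.87, and the mitochondrial iron importer Slc25a37 by 0.83, a call lost under TMM (adjusted p = 0.107). In scMSC against DNCB 7 fell, namely Hmox1 by 2.15, Bach1 by 1.63, Tspo by 1.75, Slc25a37 by 1.18, Hmox2, Slc25a28 and Tmem14c, and 1 rose, the iron-sulphur cluster co-chaperone Hscb (0.84), where 25.9% of all genes were lower and 1.65% higher. The Hscb call in scMSC was lost when scaled to haemoglobin counts. Under TMM 6 were lower (background 18.9%), Slc25a37 no longer among them, and 5 were higher (background 14.3%), namely Slc25a39, Glrx5, Blvrb, Hscb and Slc48a1.

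In scivMSC against DNCB the haem-handling genes parted in both directions. Of the 18, 6 fell, where 65.0% of all genes did, led by Hmox1 (fell by 3.38 on the log2 scale), Slc25a28, a second mitochondrial iron importer (fell by 2.87), and Hmox2 (fell by 2.82), with Bach1, Tmem14c and Tspo, the last of which was higher under TMM scaling. Another 5 rose, Blvrb, a biliverdin reductase abundant in red cells, by 1.23, Hscb by 0.89, Glrx5 by 0.74, Slc48a1 by 0.45 and Slc25a39 by 0.43, where 2.88% of all genes rose. Scaled to haemoglobin counts, only Blvrb and Hscb of these 5 passed (background 1.74%). Slc25a37 differed between the MSC groups on both scales, with FPKM of 35.7, 21.2 and 29.2 in scMSC and 59.1, 74.0 and 66.4 in scivMSC, and a log2 fold change of scivMSC against scMSC of 1.22 (adjusted p = 0.00815), or 2.31 under TMM (adjusted p = 0.00258). Its comparisons with DNCB depended on the scale. Under TMM it was at -0.53 in scMSC (adjusted p = 0.226) and higher by 1.78 in scivMSC (adjusted p = 0.000585), where total counts gave -1.18 and 0.04. Against Solvent, none of the 18 passed in scMSC, where 0.344% of all genes were higher and 0.326% lower. Under TMM, Hmox1, Bach1 and Tspo were higher there, with no share of all genes given beside them. In scivMSC against Solvent 4 rose and 3 fell, where 4.11% of all genes were higher and 61.4% lower. Under TMM 13 were higher in that comparison (background 28.2%), and Hmox2 and Slc25a28 were lower (no background given). Under TMM scaling, 13 of the 18 were higher in scivMSC than in DNCB, Tspo among them, where 27.2% of all genes were, and 4 (Hmox1, Hmox2, Bach1 and Slc25a28) were lower, where 27.0% were. Hmox1, Bach1 and Tspo had their highest mean FPKM in DNCB, where the summed neutrophil and monocyte markers given above were also highest. The part of these markers' cells in the values was not tested. Slc25a37 in scivMSC overlapped its DNCB range of 55.6 to 73.4 FPKM.

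**Figure D5:**
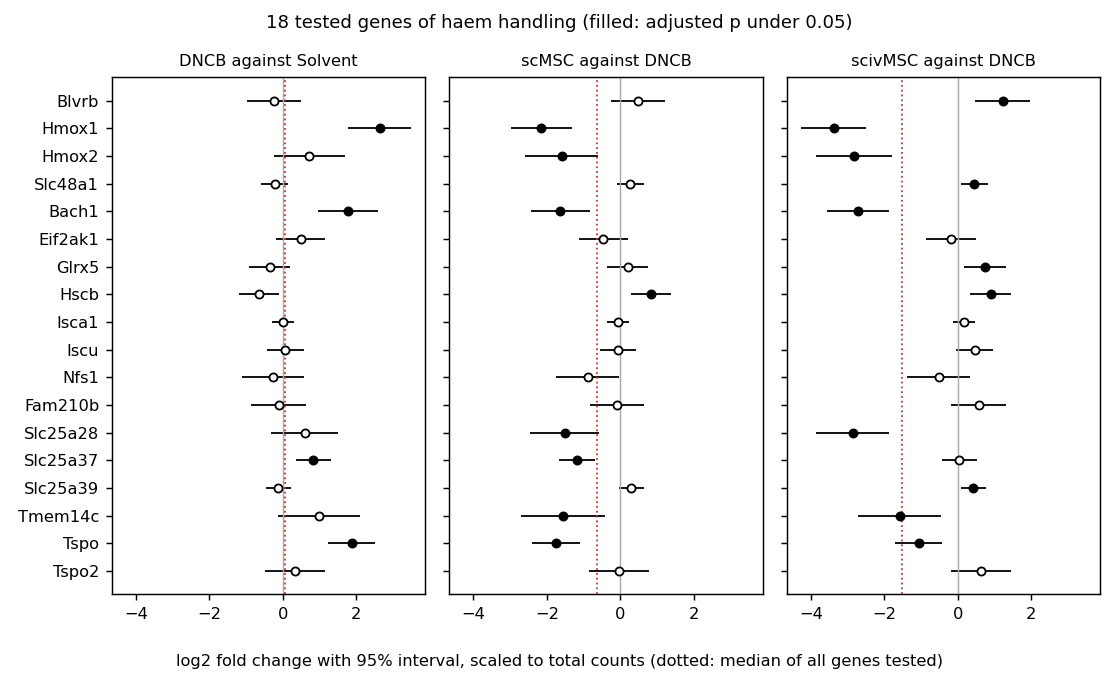
Log2 fold changes with 95% intervals of 18 haem-handling genes in 3 comparisons under total count scaling, filled where the adjusted p was under 0.05, with the median of all genes dotted. Hmox1, Bach1 and Tspo rise in DNCB (2.64, 1.77 and 1.87) and fall in both MSC groups (Tspo is higher in scivMSC under TMM scaling), while Blvrb, Hscb, Glrx5, Slc48a1 and Slc25a39 rise in scivMSC (the last 3 do not pass when scaled to haemoglobin counts).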

How the data were processed

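Whole blood RNA was sequenced in 12 libraries, with TRIzol used for extraction. The submitters' processing notes name Bowtie 0.12.2, HISAT2 2.0, StringTie 1.3.0 and the build mm8 without saying what each did, and the annotation, counting tool and strand setting are not given in the sources used here. The authors deposited 1 table with an estimated count and an FPKM value per gene and library. The deposited estimated counts are whole numbers, and 29.0% of values from 1 to 12 are exactly 4, so a count is not a fragment and small counts are less precise than they look. The deposited FPKM values have haemoglobin in the library total and followed the counts within 0.0721 on the log2 scale over 2485 genes checked.

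Group means of all 12 libraries were fitted with edgeR 4.0.16 (quasi-likelihood test, R 4.3.3), libraries scaled by total counts, keeping genes that reached 1 FPKM in 3 or more libraries. The Benjamini-Hochberg adjusted p was taken over the 5527 genes tested, with an adjusted p under 0.05 as threshold. The scripts were tested on simulated data. Samples were grouped by title, numbered libraries were taken as separate mice, and no batch is labelled. If they were not, p-values measure technical spread. Each gene named is in a fixed list (the 9 genes, 30 other haem genes, 18 red cell genes, blood cell markers), overlaps a listed gene or is among the 3 most correlated with one. Genes and lists were chosen with earlier results of these data known. Ahsp of the red cell list was not in the table. Some results for single genes of that list are not reported here. Alternatives were DESeq2 1.42.0, limma 3.58.1 on log2(FPKM + 1) or log2(FPKM + 0.1), TMM scaling, haemoglobin scaling or removal, other filters, counts divided by 4, fits of 2 groups, a replicate block and leaving out each library. No sequences are printed.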

Additional observations from a re-analysis of the deposited data

How the results depend on the processing

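Under total counts, 1 gene was lower in scMSC and 1 in scivMSC against DNCB, 1 differed over the 4 groups and no other comparison had a call. TMM scaling and DESeq2 each gave 1 higher in DNCB against Solvent, 1 higher in scMSC against DNCB, 6 higher and 0 lower in scivMSC against DNCB, 6 higher in scivMSC against scMSC and against Solvent, and 6 differing over the groups. TMM with no filter, chosen after the data were seen, gave 1, 1, 6, 5 and 7 for the same higher counts, 8 differing over the groups, and 0 lower in scMSC or scivMSC against DNCB. Leaving haemoglobin out of the totals gave 4, 2 and 3 higher in scivMSC against DNCB, scMSC and Solvent, 0 lower against DNCB and 5 differing over the groups. With no filter there were 0 lower in scMSC or scivMSC against DNCB, 1 lower in scivMSC against Solvent (Cpox) and 0 differing over the groups. With a mean FPKM of at least 5 only Alas2, Fech and Urod were left to test, and all these counts were 0. With only the 2 groups compared, 0 were lower in scivMSC against DNCB. Leaving out each library gave 0 to 1 lower in scMSC against DNCB, 0 to 1 higher and 0 to 2 lower in scivMSC against DNCB, 0 to 1 higher in scivMSC against scMSC, 0 to 1 higher and 0 to 1 lower in scivMSC against Solvent, and 0 to 2 differing over the groups. The cause of these changes was not tested, beyond the shift of the median that each scaling sets. For the TMM counts the shares of all genes higher were 22.6%, 14.3%, 27.2%, 20.7% and 28.2%, in that order, and 70.0% differed over the groups. In scivMSC against DNCB 10.6% were higher with haemoglobin left out and 6.69% under TMM with no filter. With no filter 28.3% were lower in scivMSC against Solvent. For DESeq2 and the other counts under the alternatives no share is given, so they have no background beside them.

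Sign changes of values that passed under total counts or in the alternative were all in scivMSC. They are given under TMM, DESeq2 and TMM with no filter, in that order where 3 values are given. A further 71 sign changes were between values that passed neither time, and these were not only in scivMSC. With each library left out, for example, Urod in DNCB against Solvent ran from -0.33 to 0.23. Ppox turned to 0.54, 0.52 and 0.31 against DNCB and to 1.14, 1.17 and 1.21 against Solvent. Slc25a38 turned to 0.99 and 0.98 against DNCB under TMM and DESeq2, to 0.72 and 0.75 against scMSC, and to 0.84, 0.87 and 0.90 against Solvent. Fech turned to 1.48, 1.52 and 1.55 against Solvent. Under TMM with no filter, Abcb10 turned to 1.26 against DNCB and Uros to 1.49 against Solvent. The shared replicate numbers were not taken to pair the mice, since no label ties them to a litter or batch and the deviations of same-numbered libraries had r between -0.200 and 0.173, over 0.1 in 3 of 18 pairs. As a hint from the data, 8 of 12 libraries were closest to one of their own number. With the replicate number as a block, Fech passed as higher in scivMSC against scMSC (0.49, adjusted p = 0.0492), so 1 was higher there. Ppox kept both calls under the block, at -1.31 (adjusted p = 0.0152) and -1.10 (adjusted p = 0.0146).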
